A study of Mus musculus with 8 samples.

Results

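Somatostatin RNA in the small intestine of mouse embryos labelled as having Rfx6 deleted in endocrine cells stood at 4.36% of the control level, while no probe for cortistatin or for a tested somatostatin receptor passed the test across all probes. The genes described here are Sst (somatostatin), Cort (cortistatin) and the receptor genes Sstr1 to Sstr5. They were taken by name: every non-control probe of the array whose gene name was one of these 7 symbols. The array carried 8 such probes, on 17 spots, among 55681 probes for 36161 distinct names.

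Somatostatin is a peptide hormone made by endocrine D cells of the gut and pancreas and by some neurons, and it restrains the release of many other hormones. It is cut from a precursor, prosomatostatin, and acts on a family of receptors that couple to inhibitory G proteins, lower cyclic AMP, open potassium channels and close calcium channels. Cortistatin is a related peptide from a separate gene that binds the same receptors. Rfx6 is a transcription factor of endocrine cells of the gut and pancreas.

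RNA came from the small intestine at embryonic stage E18.5, with 4 embryonic samples per group and 1 single-colour array per sample. Control replicates 1, 3 and 4 were Rfx6 fl/+ and control replicate 2 was Rfx6 fl/fl, with no Cre named for any of them. The 4 mutants were Rfx6 fl/fl Ngn3-cre, so Cre acted in cells that had switched on Ngn3 (Neurog3), the transcription factor of endocrine progenitors, or that descended from such cells. The absence of Rfx6 and the presence of Cre therefore cannot be told apart in this comparison. The titles of all 4 mutants name Rfx6, whereas the description fields of mutant replicates 2, 3 and 4 name Rfx7, Rfx8 and Rfx9. Whole tissue was assayed, so fewer somatostatin cells and less somatostatin RNA per cell cannot be told apart.

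Between 60.9% and 70.7% of spots on an array were well above background, and no spot of the member probes was saturated. All arrays lay on 1 slide, in 2 rows that each held 2 controls and 2 mutants. Mutant replicate 1 stood apart from the rest: its mean correlation with the other arrays over probes was 0.975, against 0.989 to 0.990 for the other 7. The single tested Rfx6 probe (chr10:51450116-51450175) ran from -3.48 to -2.93 in the controls, at -5.52 in mutant replicate 1 and from -3.37 to -3.02 in the other mutants, with limma's adjusted p = 0.828. That probe did not separate the groups and so did not check the labels.

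Sequences are given for 3 probes: the Sst probe, which was called, and both Sstr1 probes, which read the same gene at separate places. No probe was aligned to a transcript here. Each line is the first 30 of the probe's 60 bases, 5′ to 3′, with no part marked.
Sst: aagacattcacatcctgttagctttaatat
Sstr1, 5′ probe: cggggccatttgcctgtgttatgtgctcat
Sstr1, 3′ probe: aacctggggttcgcaagttcacactgacct
The Sst probe lies at chr16:23889776-23889835 on the minus strand (mm9, per the file headers). The Sstr1 probes lie at chr12:59314287-59314346 and chr12:59316670-59316729, with starts 2383 bases apart. The array files give these positions without exon or UTR labels.

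The Sst promoter is shown for 1 element, the cyclic AMP response element TGACGTCA, through which CREB is known to act on this gene. The RefSeq table (GRCm38.p6) gives the 250 bases before the Sst start as chr16:23890845-23891094 on the minus strand, with the element in capitals.
Sst promoter: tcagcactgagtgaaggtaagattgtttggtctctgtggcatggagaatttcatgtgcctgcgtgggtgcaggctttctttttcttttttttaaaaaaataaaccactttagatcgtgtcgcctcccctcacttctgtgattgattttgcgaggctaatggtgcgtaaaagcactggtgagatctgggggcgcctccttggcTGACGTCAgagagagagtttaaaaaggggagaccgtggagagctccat
The element lies 48 to 41 bases before the start. TGACGTCA reads the same on both strands and occurs in 508 of the 32851 promoters in the table (1.55%). Promoters were found for 5 of the 7 genes, and Sstr2 was the other one of these to hold the element, 58 to 51 bases before its start. The homeodomain core TAAT, searched on both strands as TAAT or ATTA, occurred once in the Sst window and is found in 54.9% of all promoters. The RFX core GTTGCC, searched as GTTGCC or GGCAAC and found in 10.4% of all promoters, did not occur in the Sst window and occurred once in that of Sstr4. These matches describe letters in a window and show no binding.

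Levels below are log2 processed intensity minus the array's 75th percentile, so 0 is the brightness that 75% of spots on that array did not exceed. Such a level ranks samples within 1 probe and was not used to rank probes. Differences are mutant minus control on that log2 scale.

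Sst, the hormone itself, fell in the mutants. Its level was 1.35, 1.21, 1.66 and 1.52 in control replicates 1 to 4, and -3.20, -2.94, -3.24 and -2.95 in mutant replicates 1 to 4. Every mutant was far below every control, and the spread within each group was small beside the gap. The mean went from 1.44 ± 0.197 (SD, n = 4) to -3.08 ± 0.160 (SD, n = 4), a difference of -4.52 (SE 0.130, 95% interval -4.82 to -4.22). That is 22.9-fold lower (limma, adjusted p = 6.25e-06 over 35472 probes), and single mutants kept 3.90% to 4.83% of the control mean. Among all tested probes only those for the gut hormones Gip and Ghrl fell further.

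**Figure D1:**
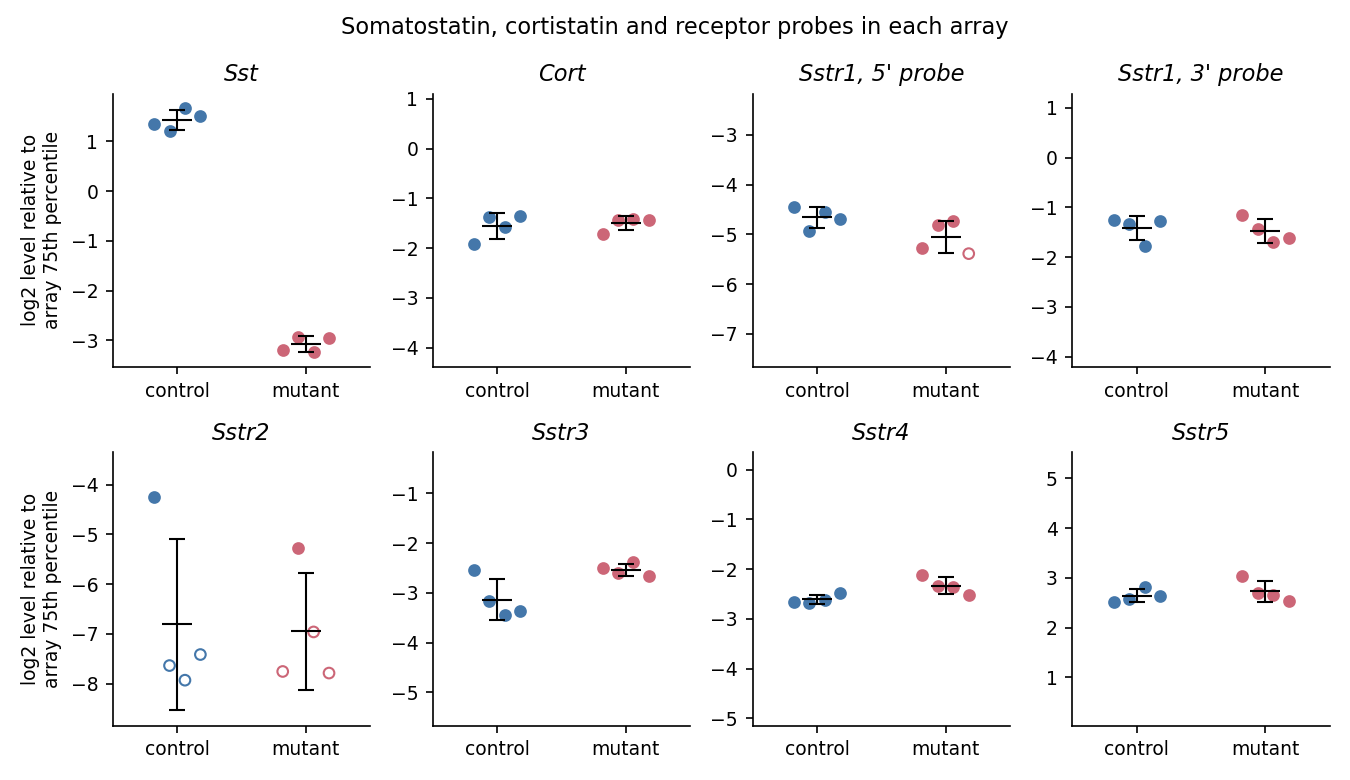
Level of each of the 8 probes on each array (log2 processed intensity minus the array's 75th percentile), with controls and mutants side by side; bars show the mean ± SD of 4 arrays and open circles mark arrays on which the probe was not well above background. The Sst groups lie apart (1.21 to 1.66 against -3.24 to -2.94), while the other probes' groups overlap.

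The Sst probe was printed on 10 spots of each array, which gives a measure of technical spread. The median processed intensity of these spots was 2378 to 3180 on the control arrays and 85.7 to 134 on the mutant arrays. The spots of 1 control array differed by an SD of 0.032 to 0.046 on the log2 scale, and those of 1 mutant array by 0.070 to 0.200. These medians and SDs take all 10 spots, including 1 outlier spot on mutant replicate 2 that was left out of the test. All 40 mutant spots were still called well above background, so a remnant of Sst signal was measured on every mutant array. The size of the fall depends on what is taken from or added to each spot at these low intensities. With normexp background correction, which adds an offset of 50 to each spot, it was 14.5-fold (6.89% of control). In the deposited value table, which followed median spot intensity and not the background-subtracted one, it was 15.0-fold (6.68% of control). A constant left in or added to every spot makes such folds smaller.

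**Figure D2:**
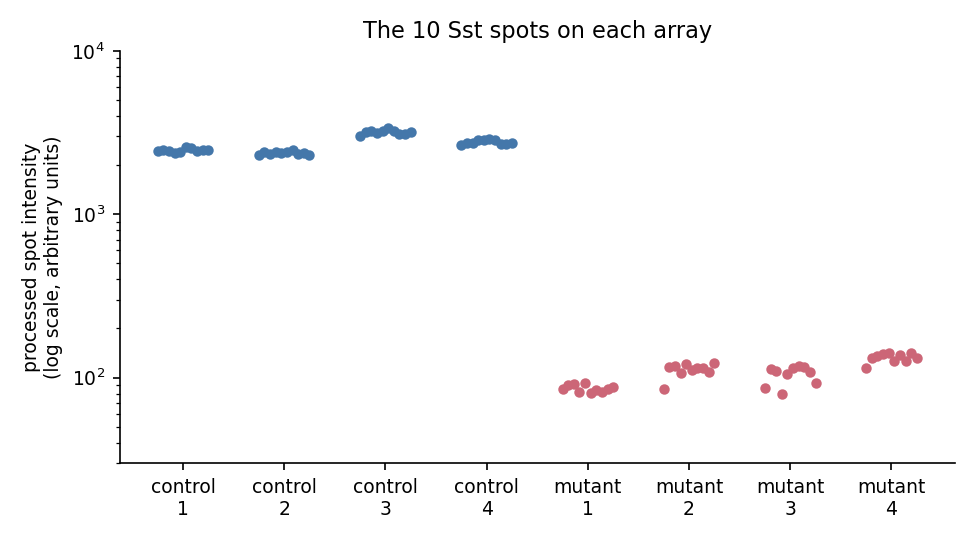
Processed intensity of the 10 Sst spots on each array, on a log axis, 1 point per spot. Control spots lie high (array medians 2378 to 3180) and mutant spots low (85.7 to 134), with more scatter between spots on the mutant arrays.

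The fall in Sst was as large within each slide row, at -4.35 in the first and -4.69 in the second. Without mutant replicate 1, the array that stood apart, it was -4.48, and without control replicate 2, the only Rfx6 fl/fl control, it was -4.59.

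Cort, the gene of the related peptide, gave no call. Its level was -1.93, -1.37, -1.59 and -1.36 in the controls and -1.72, -1.44, -1.41 and -1.43 in the mutants (probe at chr4:148499300-148499359). The mutant values lay inside the control range. The difference was 0.062 (SE 0.147, 95% interval -0.27 to 0.40, adjusted p = 0.917), and it took the other sign, -0.059, without control replicate 1.

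Sstr1, a receptor of the Gi-coupled family, was read by both of its probes without a call. The 5′ probe was at -4.45, -4.93, -4.56 and -4.69 in the controls and -5.27, -4.81, -4.74 and -5.39 in the mutants, and on mutant replicate 4 it was not well above background. The groups overlapped, with a difference of -0.39 (SE 0.178, 95% interval -0.80 to 0.01, adjusted p = 0.828). It was -0.076 with normexp background correction, -0.14 in the deposited value table and -0.21 with array weights. The 3′ probe of the same gene was at -1.25, -1.34, -1.78 and -1.28 in the controls and -1.15, -1.44, -1.69 and -1.62 in the mutants. Its difference was -0.061 (SE 0.162, 95% interval -0.43 to 0.31, adjusted p = 0.926), and its sign turned, to 0.011, without mutant replicate 3. The intervals of the 2 probes overlap.

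Sstr2, a receptor through which somatostatin restrains many endocrine cells, was hardly detected. Its probe was well above background on control replicate 1, at -4.26, and on mutant replicate 2, at -5.27. On the other 6 arrays it read -7.93 to -6.96 and was not well above background, so it was not tested and no fold is given. The array files place this 60-base probe over 399 bases (chr11:113486505-113486903), a span that leaves 339 bases outside the probe. The RefSeq table places the gene over another, Slc39a11.

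Sstr3, another receptor of the family, read higher in the mutants without passing the test. Its level was -2.55, -3.17, -3.45 and -3.36 in the controls and -2.50, -2.59, -2.38 and -2.65 in the mutants (probe at chr15:78367445-78367504). Control replicate 1 lay among the mutants, and the other controls lay below all of them. The difference was 0.60 (SE 0.193, 95% interval 0.16 to 1.04), with an unadjusted p of 0.0134 and an adjusted p of 0.828 in limma. Without control replicate 1 it was 0.79 (SE 0.119), the groups no longer overlapped and the adjusted p was 0.282. The difference was 0.31 in the first slide row and 0.89 in the second, and 0.39 both with normexp background correction and in the deposited value table.

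Sstr4 read higher by a smaller margin, also without a call. Its level was -2.66, -2.68, -2.62 and -2.48 in the controls and -2.12, -2.33, -2.36 and -2.53 in the mutants (probe at chr2:148221846-148221905). Only mutant replicate 4 fell within the control range. The difference was 0.27 (SE 0.109, 95% interval 0.03 to 0.52, unadjusted p = 0.0345, adjusted p = 0.828), with 0.44 in the first slide row and 0.11 in the second.

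Sstr5, a receptor also found on endocrine cells, was at 2.52, 2.58, 2.82 and 2.64 in the controls and 3.04, 2.69, 2.66 and 2.54 in the mutants (probe at chr17:25626870-25626929). The groups overlapped, and mutant replicate 1 was the highest array. The difference was 0.092 (SE 0.129, 95% interval -0.20 to 0.39, adjusted p = 0.859). It was 0.31 in the first slide row and -0.13 in the second, and -0.011 without mutant replicate 1.

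Of the 7 member probes tested, 1 was called at an adjusted p below 0.05, and it was lower; over all tested probes 0.0423% were called and 0.0395% were called lower. The groups did not overlap for 1 of the 7 (Sst), against 4.38% of all tested probes. An unadjusted p below 0.05 was found for 3 of the 7 (Sst, Sstr3 and Sstr4), against 5.05%. For Cort and the receptors that were tested, which leaves out Sstr2, the intervals above bound what these arrays could miss, and the values do not show that the levels were equal.

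**Figure D3:**
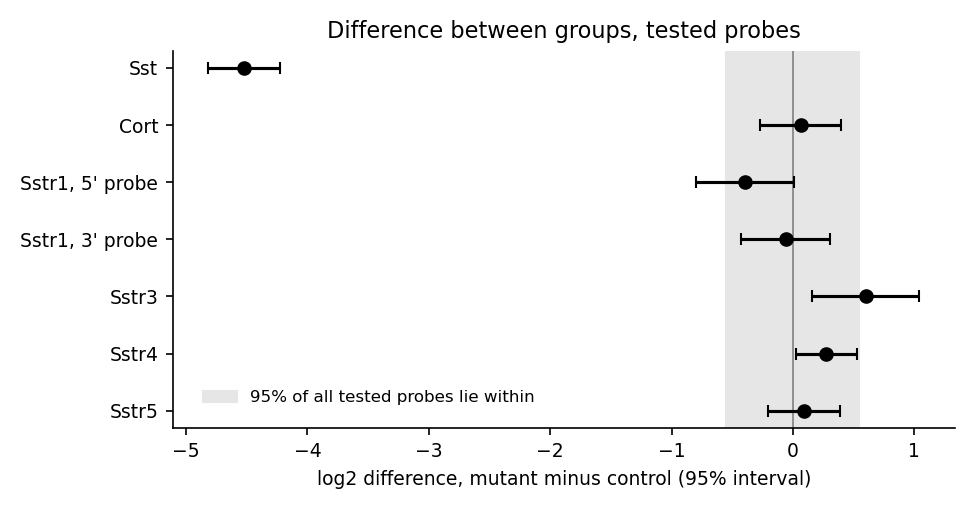
Mutant minus control difference (log2) of the 7 tested probes with 95% intervals; the grey band, 0.548 to either side of 0, holds 95% of all tested probes. Sst lies at -4.52, far outside the band, and Sstr3, at 0.60, lies just beyond it with an interval that reaches back inside.

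Among the called probes, the genes whose profile over the 8 arrays lay nearest to that of Sst were peptide hormones and, by its measured values only, a regulator. Likeness was the root mean square difference from Sst, after each probe was centred on its control mean, among the 15 probes called at 0.05. That pool itself held several hormone genes, and the distance mostly follows the size of the fall. Ghrl, the gene of ghrelin, was nearest (0.397), with a difference of -4.86 (SE 0.168, adjusted p = 8.38e-06). Nts, which encodes neurotensin, followed (0.447, difference -3.98, SE 0.129), and then Gcg, the proglucagon gene (0.799, difference -3.42, SE 0.138). Cck, the cholecystokinin gene, was farther away (1.46, difference -2.49). Isl1, a LIM homeodomain factor, was also among the 5 genes by its measured values, but it was not well above background on any mutant, so its distance and its place among the 5 are not known. In the promoters found for these 5 genes, none held TGACGTCA, which only 1.55% of all promoters hold, so its absence says little. The first 5 letters of that element, TGACG, occurred on either strand for 3 of the 5, against 17.8% of all promoters. TAAT occurred for 3 of the 5 and the RFX core for 1, against 54.9% and 10.4%.

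**Figure D4:**
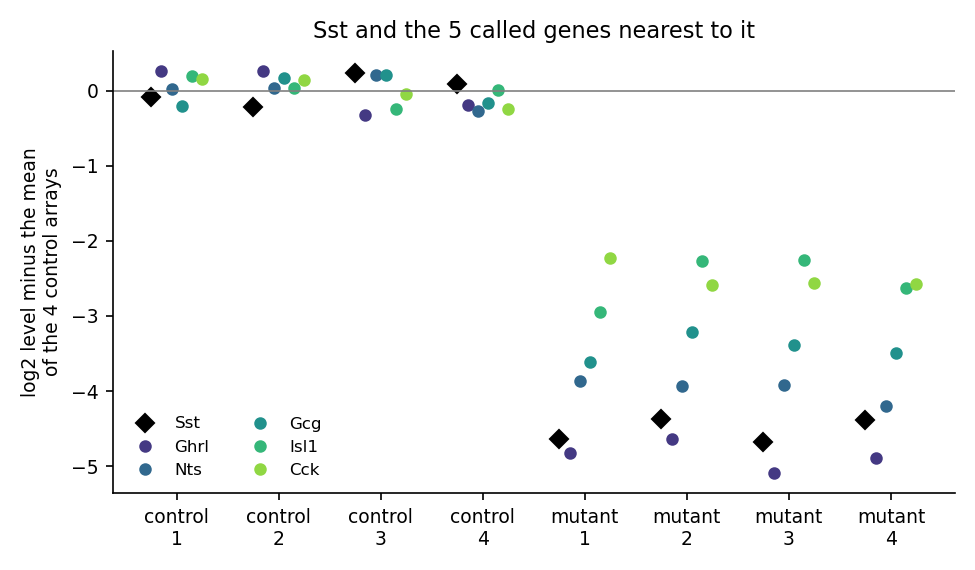
Level of Sst and of the 5 called genes nearest to it on each array, as log2 level minus the mean of the 4 controls. All 6 lie near 0 in the controls; in the mutants Sst and Ghrl lie lowest, between -5.09 and -4.37, and Cck lies between -2.58 and -2.23. The mutant values of Isl1 were not well above background and have no known place.

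Around the peptide and its receptors, 66 genes of the somatostatin pathway were followed in 7 lists, and 59 of them were tested. Of these, 1 was called lower and none higher, with a median difference of 0.06, against 0.02 over all tested probes. The groups did not overlap for 6 of the 59, where 4.38% of all tested probes had such groups. The call was among the regulators of Sst transcription or of somatostatin cells, of which 11 of 12 were tested, with a median of 0.06. It was Isl1, which is also among the 6 whose groups did not overlap. Isl1 entered the test only through the controls, where it read high, so neither count is independent of the filter.

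Isl1, which acts in endocrine cells, fell from -4.05 ± 0.182 (SD, n = 4; probe at chr13:117088774-117088833) to a measured -6.57 ± 0.330 (SD, n = 4). It was not well above background on any mutant (limma, adjusted p = 0.00139), and against a floor it was 3.19-fold lower, a log2 difference of 1.67. On each mutant the floor was the array's lowest signal well above background, or the probe's own signal where that was higher. The floor had a mean of -5.72 and is not a strict limit of detection. On mutant replicate 4 the 5′ Sstr1 probe, at -5.39, was not well above background. With normexp background correction the fitted difference was -0.63 (adjusted p = 0.0468), and in the deposited value table it was -0.69 (adjusted p = 0.00954). Both are smaller than the floor's difference, so 3.19-fold is not a lower limit. With the replicate number as a block the adjusted p was 0.0949.

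Among the other regulators, 2 had groups that did not overlap. Neurog3, the factor of endocrine progenitors, was at 0.15 ± 0.076 (SD, n = 4) in the controls and 0.91 ± 0.136 (SD, n = 4) in the mutants, a difference of 0.76 with an adjusted p of 0.0861. It passed 0.05 in 4 of 21 alternative analyses. Pax4, a paired homeodomain factor of endocrine differentiation that is named after its values were seen, differed by 0.70 with an adjusted p of 0.415.

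No gene of the other 6 lists was called. The 9 prosomatostatin processing genes, which cut and trim the precursor, had a median difference of 0.08, with Furin at 0.23 and Cpd at 0.15 (0.097 and 0.062 without mutant replicate 1). All 5 genes of Gi and Go coupling, the G proteins below the receptors, were tested, with a median of 0.10; Gnai3 was at -0.42 and Gnaz at 0.22, the latter at 0.097 without mutant replicate 1 and 0.14 without control replicate 3. The 6 desensitisation genes had a median of 0.07, with Arrb1, an arrestin, at 0.24 and Grk2, a receptor kinase, at 0.14. Without mutant replicate 1 these were 0.14 and 0.018, and without control replicate 1 Grk2 was at 0.067.

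Of 18 effectors, which include adenylyl cyclases and ion channels, 14 were tested, with a median of 0.01. Kcnj5, a G protein-gated potassium channel subunit, was at -0.37, and Cacna1a, a calcium channel subunit, at -0.20. Kcnj5 was at -0.071 with normexp background correction, -0.10 in the deposited value table and -0.24 without mutant replicate 4. Cacna1a was at -0.078 without control replicate 1 and -0.33 without control replicate 3. The 5 peptidases that can degrade the peptide had a median of 0.06, with Thop1 at 0.21 and Mme at -0.21. Mme was at -0.0094 without mutant replicate 1 and -0.36 without mutant replicate 3. Of 11 receptors that act on somatostatin cells, 9 were tested, with a median of 0.04; Cckar, a cholecystokinin receptor, was at 0.66 and Ffar4, a fatty acid receptor, at -0.34, each with an adjusted p of 0.828. In the deposited value table these were 0.39 and -0.15.

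**Figure D5:**
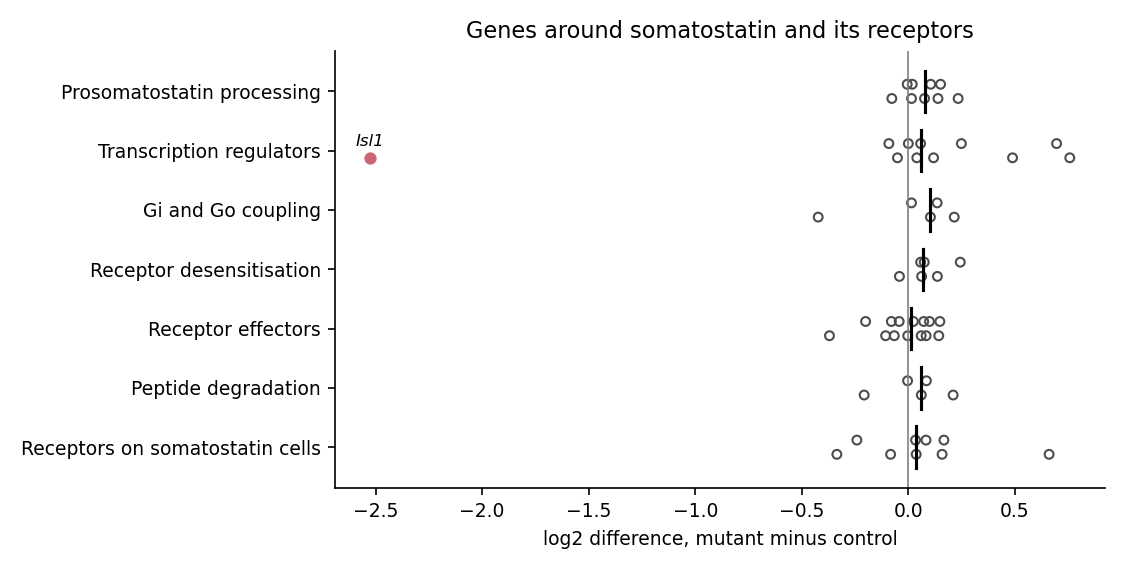
Mutant minus control difference (log2) of the 59 tested genes in 7 pathway lists, 1 point per gene, filled where called at an adjusted p below 0.05, with the list median as a black tick. The called gene, Isl1, sits at -2.52 as measured, and the medians of all lists lie between 0.01 and 0.10.

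Markers of other tissues and cells were read beside the fall of Sst. The sample's own tissue was clear: 8 small intestine epithelium markers summed, on the log2 scale, to 10.4 in every control to 1 decimal and to 10.3 to 10.6 in the mutants, with none of the 8 called. Of 7 endocrine cell markers, 1 was called, Scg2 (-1.13, adjusted p = 0.0171), while the 7 divided into 4 lower and 3 higher, from Scg2 to Neurod1 at 0.49. The summed level of the 7 was 5.61 to 5.82 in the controls and 5.51 to 5.70 in the mutants. Each summed level here is the log2 of added linear levels, so the brightest probes weigh most. For this list Chgb and Chga, at control means of 4.96 and 3.56, made up most of it, and Scg2, at 0.93, little.

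The pancreas also makes somatostatin. Of 8 pancreatic acinar markers 6 were tested and none was called, but all 6 read higher in the mutants, by 1.02 to 6.09 (median 1.25). The largest were Amy2a5 at 6.09 and Cela2a at 3.95 as measured, the latter well above background on no control. The groups did not overlap for 4 of the 6, against 4.38% of all tested probes. Cela2a is among these 4, but it entered the test only through the mutants, where it read high. Pnlip and Prss2 were not tested. As measured, Pnlip differed by -0.10 and was well above background on 1 control and 1 mutant. Prss2 differed by 2.44 and was well above background on no control and 3 mutants. The summed level of all 8 ran from 0.16 to 1.26 in the controls and from 1.62 to 3.88 in the mutants. Of 6 pancreatic islet markers 4 were tested and none was called. Of these, 3 read lower in the mutants: Iapp, islet amyloid polypeptide, at -1.74 (limma, adjusted p = 0.0885), Ins1 at -0.43 and Ins2 at -0.10. Slc2a2 read higher, at 0.11. The summed levels of the list were 2.64 to 2.70 against 2.32 to 3.03. Slc2a2 (mean 2.50 in the controls and 2.61 in the mutants) made up most of that sum, which says little of the others. Of the islet list, G6pc2 was not well above background on any of the 8 arrays.

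Of 9 stomach markers 3 were tested and none was called, and 3 of the 9 were not well above background on any array. The summed level of the list was 3.08 in mutant replicate 3, against -2.50 to -1.67 in the other mutants and -2.44 to -2.16 in the controls. The spread lay in the trefoil factor genes Tff1 and Tff2 (SD 3.66 and 3.28 over the 4 mutants), while that of the tested Muc5ac and Gkn1 was 0.311 and 0.250. That mutant held the lowest Sst level, and without it the difference in Sst was -4.47. None of 9 enteric neuron markers was called, and their summed levels were 2.89 to 3.55 and 3.27 to 3.56. The part of these other tissues in the values of Sst was not tested.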

How the data were processed

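The authors deposited Agilent Feature Extraction output (version 10.10.1.1 per the submitters' processing notes) for 8 single-colour arrays of total RNA. Its processed intensity is a background-subtracted spot brightness that is not normalised between arrays, per the file headers. The deposited value table was compared with the scanner values. On each array it kept the order of median spot intensity (Spearman correlation 0.999967 to 0.999984), on a linear scale. Its median was 123 on every array. The comparison cannot tell quantile normalisation from another scaling to a common median. That table was used only as an alternative, on the log2 scale.

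Control spots and outlier spots were left out, spots of 1 probe were averaged, and log2 processed intensity minus the array's 75th percentile was analysed (75th percentile intensity 788 to 1027). Probes well above background on at least 50% of their spots on 4 or more arrays were tested: 35472 of 55681. The linear model, fitted by lmFit with eBayes and without covariates, used limma 3.58.1 (R 4.3.3) and was tested on simulated data, with Benjamini-Hochberg adjustment over all tested probes and a threshold of 0.05. The number of arrays limits the precision.

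Members and lists were chosen with earlier results of these data known, and 1 list gene is not reported here. Named genes are all members, list genes past the threshold, the 2 largest absolute differences per list, and the 5 called genes nearest Sst. Gip, Pax4 and the marker genes were named beyond this rule, after their values were seen. These marker genes are Scg2, Neurod1, Chga, Chgb, Iapp, Ins1, Ins2, Slc2a2, G6pc2, Amy2a5, Cela2a, Pnlip, Prss2, Tff1, Tff2, Muc5ac and Gkn1. Titles carry different animal numbers, but separate embryos or litters are not stated in the sources used here, so p-values measure the spread between these samples. In all 21 alternatives were run, on background, scaling, filter, block, weights, variance prior, probe choice and each left-out replicate. Normexp background correction used an offset of 50. Replicate numbers did not pair the samples.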

Additional observations from a re-analysis of the deposited data

Results flagged for a closer look

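Single samples that lay far from the rest of their group, by the gap to the nearest sample over the group's range, are given as values. The test was applied to 54 groups of 4 samples and marked 7, where chance marks about 1 in 20; of the 7, 5 were mutant replicate 1. For the peptide and its receptors these were Cort, at -1.72 in mutant replicate 1 against -1.44 to -1.41 in the other mutants, and Sstr2, at -4.26 in control replicate 1 against -7.93 to -7.42 in the other controls, where it was not well above background. Rfx6 was at -5.52 in mutant replicate 1 against -3.37 to -3.02. In the same mutant the carboxypeptidase gene Cpd was at 1.30 against 0.92 to 0.96, the receptor kinase gene Grk2 at 2.99 against 2.50 to 2.54, and Cck at 2.16 against 1.80 to 1.83. Thop1, a peptidase gene, was at 0.14 in control replicate 1 against 0.35 to 0.37 in the other controls.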

How the results depend on the processing

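The difference in Sst kept its direction and passed 0.05 in 21 of 21 alternatives, from -4.59 to -3.86, with adjusted p from 7.27e-08 to 0.00145. The count of called probes, 15, was 24 with normexp background correction, 42 with array weights, 23 with a trended robust prior and 7 with the replicate block; leaving out 1 replicate gave 9 to 20, with 9 both without control replicate 2 and without mutant replicate 3. The count of 1 called pathway gene, Isl1, was 2 with normexp background correction, the deposited value table, array weights or the trended robust prior, each adding Neurog3. It was 0 when only probes well above background on all 8 arrays were tested, a filter that removes Isl1, and 0 with the replicate block, under which Isl1 had an adjusted p of 0.0949. Deviations of same-numbered samples correlated at -0.087 to 0.0996, so the numbers were not taken to pair samples; with the replicate block Sst was unchanged at -4.52 (adjusted p = 0.00145). Of the receptors and Cort, signs turned for Cort without control replicate 1 (-0.059; range over left-out replicates -0.059 to 0.14), the 3′ Sstr1 probe without mutant replicate 3 (0.011; -0.18 to 0.011) and Sstr5 without mutant replicate 1 (-0.011; -0.011 to 0.16). No member other than Sst passed 0.05 in any of the alternatives in which it was tested. The cause of each change was not tested unless given. Signal over background limits Sstr2, the 5′ Sstr1 probe and Isl1, which were not well above background on every array.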
